A study of Mus musculus with 22 samples.

Results

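Filamins and actin contractile genes were followed in mouse kidney across 4 treatment groups. They comprised 9 of the 32858 genes with at least 1 read: the filamins Flna and Flnc, the cross-linker Actn1, the smooth muscle actin Acta2, the transgelins Tagln and Tagln2, the tropomyosin Tpm1, the myosin light chain Myl9 and the myosin heavy chain Myh9. Each member was the row of the count table that bears its symbol, and all 9 passed the filter on low counts. The set was chosen by measured values of these libraries, the fold changes between cisplatin plus KW6002 and cisplatin alone, in which Flnc had the largest decrease of the 9. Values from that comparison are therefore given as a description, with no test.

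RNA-Seq was performed on kidneys of 22 male C57Bl6/J mice aged 8 to 10 weeks, 1 library per mouse, from a protocol of subchronic cisplatin nephrotoxicity. Cisplatin is a platinum drug used against tumors that injures the kidney tubule, and KW6002 (istradefylline) is an antagonist of the adenosine receptor that Adora2a encodes. The groups were vehicle (5 mice), KW6002 (6 mice, 3 mg/kg daily by the intraperitoneal route from day -5 to day 7), cisplatin (5 mice, 3 mg/kg daily in 6 injections) and cisplatin plus KW6002 (6 mice, both regimens). Kidneys were collected 72 hours after the last cisplatin injection. Totals ran from 26471762 to 40510754 counts per library. Mouse numbers in the labels fell into a 300 series and a 500 series. The 300 series held 3 vehicle and 3 KW6002 mice, and all mice given cisplatin belonged to the 500 series, so values within the 500 series are given below.

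Filamins cross-link actin filaments into networks and tie them to membrane receptors; FLNA is found in most cells, whereas FLNC is best known from skeletal and cardiac muscle. Alpha-actinin bundles filaments at stress fibers and adhesions, tropomyosin winds along the filament and controls which proteins reach it, transgelins bind along it, and nonmuscle myosin II, built from MYH9 heavy chains and regulatory light chains such as MYL9, pulls on it. In the normal kidney, ACTA2, TAGLN and MYL9 mark vascular smooth muscle and related perivascular cells, and ACTA2 also marks myofibroblasts. Many of these genes are known targets of serum response factor (SRF), which binds the CArG box.

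Values are CPM, the counts of a gene relative to the library total, scaled by the trimmed mean of M values, and a gene passed the test at a Benjamini-Hochberg adjusted p below 0.05 over 17131 genes in the edgeR quasi-likelihood fit. Errors of fold changes are standard errors. In whole kidney, more cells of a type and more RNA per cell cannot be told apart.

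After cisplatin, 8 of 9 genes were higher than after vehicle and Myl9 did not pass, whereas 34.6% of all genes tested were called higher. All 5 cisplatin libraries lay above all 5 vehicle libraries for the same 8 genes, a pattern that 27.4% of all genes showed. A stricter call, which asked for an adjusted p below 0.01 together with a log2 value above 1, was met by 6 of 9 genes and by 12.1% of all genes. The median log2 fold change of the 9 genes was 1.22, and that of all genes was -0.012. Scaling by library size alone moved the median of all genes to 0.20 and raised the higher share of all calls from 49.1% to 65.8%. With that scaling 8 of 9 genes were higher, while the count over all 17131 genes rose from 5930 to 8157. This comparison shares its 5 cisplatin libraries with the one used to choose the genes.

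In the mice given cisplatin plus KW6002, 8 of 9 genes were still higher than in vehicle, against 29.8% of all genes, and 5 of 9 showed no overlap with vehicle, against 18.9%. Of the 9 genes, 1 met the stricter call, against 5.83% of all genes. The median log2 fold change against vehicle was 0.77, beside -0.0018 for all genes. This comparison with vehicle shares its 6 co-treated libraries with the one used to choose the genes. Between the co-treated and cisplatin groups, 5 of 9 genes were lower in every co-treated library, a pattern that 18.5% of all genes showed; this count follows from the choice of genes. KW6002 alone changed 0 of 9 genes by the edgeR test, beside 0.0175% of all genes, and the lowest adjusted p among the 9 was 0.726. At an unadjusted p below 0.05 there were 0 of 9, beside 11.3% of all genes. DESeq2 called 0 of 9, and over all 18199 genes it tested it called 46 higher and 53 lower.

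**Figure D1:**
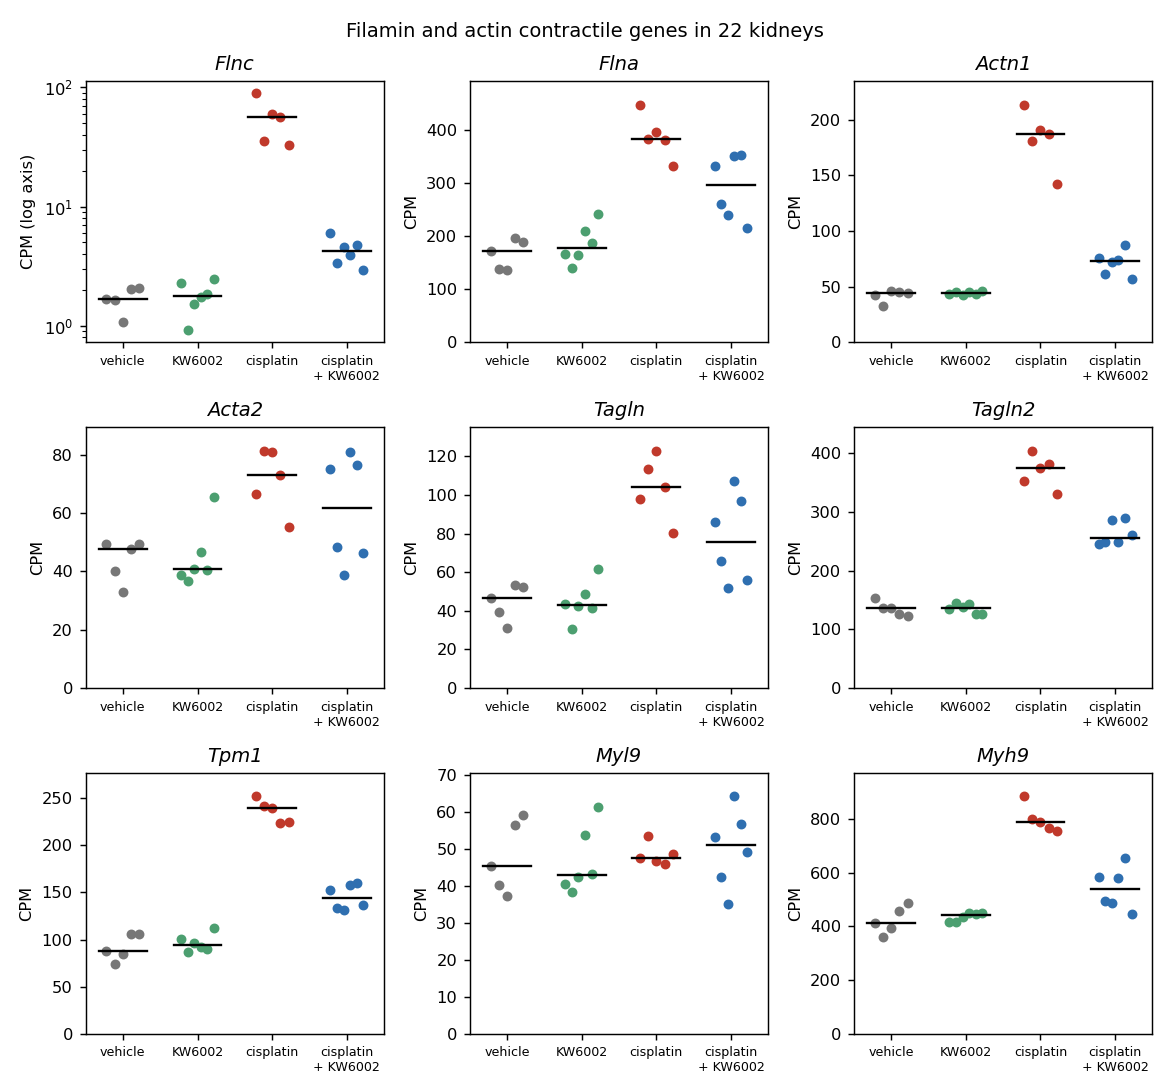
CPM of the 9 genes in each of the 22 kidney libraries by group, with 1 point per mouse and a bar at the group median; the axis of Flnc is logarithmic and the others start at 0. Flnc stood at 32.8 to 89.9 CPM after cisplatin and at 2.95 to 6.04 with KW6002 added, whereas Myl9 overlapped across all 4 groups.

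Flnc was the gene of the set with the lowest level in control kidney and the largest response. It lies on the plus strand at chr6:29433256-29461883 of mm10. Vehicle kidneys had 1.68, 1.64, 1.08, 2.04 and 2.05 CPM, backed by 32 to 63 counts per library. Cisplatin kidneys had 89.9, 35.7, 60.3, 56.6 and 32.8 CPM, backed by 1160 to 3374 counts. The groups were far apart, and the cisplatin libraries also differed among themselves more than those of any other gene of the set, with a coefficient of variation of 41.7%. The log2 fold change of cisplatin against vehicle was 5.01 ± 0.29 (adjusted p = 5.87e-13), a 32.3-fold rise that ranked 94 from the top of 17131 genes. Co-treated kidneys ran from 2.95 to 6.04 CPM with a median of 4.27. All 6 lay below the lowest cisplatin kidney and above the highest vehicle kidney. Against vehicle the co-treated level had risen by a log2 fold change of 1.33 ± 0.29 (adjusted p = 0.00042), and against cisplatin the value was -3.69 ± 0.24, or 12.9-fold lower, with no test. KW6002 alone gave 0.914 to 2.45 CPM with a median of 1.78, which overlapped vehicle.

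The promoter of Flnc is shown because the gene had the widest range of the set, and that of Myl9 because it was the gene that did not pass after cisplatin. Both are RefSeq sequences on GRCm38.p6, plus strand, 5′ to 3′. The Flnc stretch is the 250 bases before its upstream annotated start, chr6:29432903-29433152, and its capitals mark GGGCGG, the GC box read by SP family factors. The Myl9 stretch, chr2:156775214-156775419, ends where the first annotated exon begins, and its capitals mark a CArG box.
Flnc: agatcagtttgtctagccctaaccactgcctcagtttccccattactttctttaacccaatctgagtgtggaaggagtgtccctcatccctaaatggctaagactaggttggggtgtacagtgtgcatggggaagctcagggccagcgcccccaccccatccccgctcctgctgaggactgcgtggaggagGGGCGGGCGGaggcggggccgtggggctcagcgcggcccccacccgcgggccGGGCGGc
Myl9: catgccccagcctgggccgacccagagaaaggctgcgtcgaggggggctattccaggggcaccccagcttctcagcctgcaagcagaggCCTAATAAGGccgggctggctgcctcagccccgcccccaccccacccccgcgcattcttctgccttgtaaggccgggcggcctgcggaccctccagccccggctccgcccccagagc

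Promoters were matched for 8 of 9 genes (Tagln had none), and the 250 bases before each annotated start were searched on both strands. Annotated exons cover 217, 199, 194 and 193 of these 250 bases for Acta2, Tagln2, Actn1 and Tpm1, so those windows are largely transcribed sequence. The CArG box was searched in its strict form, with only A or T in the 6 bases between CC and GG. It was found for 1 of the 8, Myl9, at 161 to 152 bases before its start, and in 1.47% of all promoters searched. GGAATG, the core of the element bound by TEAD factors, was found for Acta2, Flna, Flnc, Tagln2 and Tpm1, and in 12.6% of all promoters. GGGCGG was found for 7 of the 8 and in 32.7% of all promoters, TATAAA for Myh9 and in 12.4%, and TGANTCA, the AP-1 site, for 0 of the 8 and in 6.75%. The GGAATG match of Flnc starts on the last base of the stretch above and belongs to a window before the downstream start. Forms that depart from the strict CArG box were not searched, and the known CArG elements of Acta2 are of that kind. Counted by gene, the shares were 1.62% for the CArG box, 14.4% for GGAATG, 35.4% for GGGCGG, 14.3% for TATAAA and 7.82% for TGANTCA. The matches describe letters in these windows and nothing beyond them.

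Flna, which encodes the filamin of most cell types, lies at chrX:74223461-74249820 on the minus strand. Vehicle kidneys had 172, 139, 136, 197 and 188 CPM, and cisplatin kidneys had 447, 384, 396, 381 and 332 CPM. The groups did not overlap, and Flna rose by a log2 fold change of 1.22 ± 0.15 (adjusted p = 1.98e-07). With both agents, kidneys ran from 215 to 352 CPM with a median of 297, above all vehicle kidneys, and their upper end overlapped the cisplatin group. The log2 fold change was 0.81 ± 0.15 against vehicle (adjusted p = 5.14e-05) and -0.41 ± 0.14 against cisplatin, the latter with no test. With KW6002 alone, kidneys ran from 140.5 to 241 CPM with a median of 177.

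Actn1, the alpha-actinin of stress fibers and focal adhesions, lies at chr12:80167547-80260371 on the minus strand and had the largest change after Flnc. Vehicle kidneys had 42.2, 32.4, 45.5, 45.01 and 44.4 CPM, and cisplatin kidneys had 213, 181, 191, 187 and 143 CPM. Every cisplatin kidney was above every vehicle kidney, and the log2 fold change was 2.13 ± 0.11 (adjusted p = 9.91e-14). In the co-treated group, values ran from 57.0 to 87.6 CPM with a median of 73.0. They lay between vehicle and cisplatin without touching either, with a log2 fold change of 0.77 ± 0.10 against vehicle (adjusted p = 1.53e-06). Against cisplatin the value was -1.36 ± 0.10, with no test. KW6002 kidneys, at 42.8 to 45.7 CPM with a median of 44.1, had the smallest relative spread of any gene and group of the set, a coefficient of variation of 2.91%. A pair of antisense genes overlaps exons of Actn1, with median counts per library of 0 and 1.

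Acta2, the smooth muscle alpha-actin, lies at chr19:34241090-34255590 on the minus strand and moved less. Vehicle kidneys had 49.5, 40.1, 32.9, 47.8 and 49.4 CPM, and cisplatin kidneys had 66.4, 81.4, 80.8, 72.9 and 55.2 CPM. The groups were adjacent without overlap, and the log2 fold change was 0.70 ± 0.19 (adjusted p = 0.00243). Co-treated kidneys spread from 38.9 to 80.8 CPM with a median of 61.8 and overlapped both other groups. Their log2 fold change of 0.47 ± 0.18 against vehicle passed (adjusted p = 0.0303), but 9 alternatives lost the call, 5 of which left out 1 library. The adjusted p was 0.0630 without vehicle replicate 2 and 0.0900 without vehicle replicate 3. It was 0.0708, 0.0857 and 0.0756 without co-treated replicates 1, 4 and 5 in turn, and 0.0529 with the replicate number as a block. Against cisplatin the co-treated value was -0.23 ± 0.18, which was not tested. After KW6002 alone the values ran from 36.6 to 65.6 CPM with a median of 40.7.

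Tagln, the transgelin of smooth muscle, lies at chr9:45929619-45936058 on the minus strand. Vehicle kidneys had 46.4, 39.5, 31.0, 53.5 and 52.5 CPM, and cisplatin kidneys had 97.9, 113, 123, 104 and 80.4 CPM. All cisplatin kidneys were above all vehicle kidneys, and Tagln rose by a log2 fold change of 1.22 ± 0.20 (adjusted p = 9.17e-06). Co-treated kidneys ran from 51.7 to 107 CPM with a median of 75.9, and the lowest of them fell among the vehicle values. The log2 fold change was 0.79 ± 0.19 against vehicle (adjusted p = 0.00107) and -0.43 ± 0.18 against cisplatin, the latter not tested. KW6002 kidneys ran from 30.7 to 61.7 CPM with a median of 42.8. Exons of Pcsk7, with a median of 1549.5 counts per library, and of the antisense gene Gm48529, with 87.5, overlap those of Tagln on the opposite strand. Whether strand was used in counting is not given in the sources used here, so the assignment of reads among these genes is uncertain.

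Tagln2, a transgelin found outside muscle as well, lies at chr1:172500047-172507380 on the plus strand and varied less between mice. Vehicle kidneys had 153, 136, 136, 126 and 122 CPM, and cisplatin kidneys had 353, 405, 374, 381 and 331 CPM. The groups were well apart, with a log2 fold change of 1.46 ± 0.069 (adjusted p = 2.04e-14), the lowest adjusted p of the 9 genes. With both agents, kidneys ran from 246 to 289.7 CPM with a median of 256 and overlapped neither vehicle nor cisplatin. The log2 fold change was 0.97 ± 0.066 against vehicle (adjusted p = 3.87e-11) and -0.48 ± 0.064 against cisplatin, the latter not tested. With KW6002 alone, kidneys ran from 126 to 145 CPM with a median of 137.

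Tpm1, an alpha-tropomyosin of muscle and nonmuscle filaments, lies at chr9:67022590-67049406 on the minus strand. Vehicle kidneys had 87.9, 73.7, 84.6, 105 and 106 CPM, and cisplatin kidneys had 252, 241, 240.2, 224 and 224 CPM. The groups did not overlap, and the log2 fold change was 1.37 ± 0.090 (adjusted p = 4.99e-12). In the co-treated group, values ran from 132 to 159.6 CPM with a median of 144, again between the other groups without overlap. Their log2 fold change was 0.67 ± 0.085 against vehicle (adjusted p = 6.51e-07) and -0.70 ± 0.084 against cisplatin, the latter not tested. After KW6002 alone the values ran from 86.4 to 112 CPM with a median of 93.8.

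The myosin subunits differed from each other. Myh9, the heavy chain of nonmuscle myosin IIA, lies at chr15:77760587-77842175 on the minus strand. Vehicle kidneys had 412, 360.2, 393, 456 and 486 CPM, and cisplatin kidneys had 884, 801, 788, 766 and 756 CPM. The groups were well apart, with a log2 fold change of 0.92 ± 0.089 (adjusted p = 3.42e-09). Co-treated kidneys ran from 448 to 655 CPM with a median of 537.9, below every cisplatin kidney and overlapping vehicle. The log2 fold change was 0.36 ± 0.085 against vehicle (adjusted p = 0.000856) and -0.56 ± 0.084 against cisplatin, the latter not tested. KW6002 kidneys ran from 415 to 449 CPM with a median of 441.

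Myl9, a regulatory light chain of smooth muscle and nonmuscle myosin II, lies at chr2:156775420-156781658 on the plus strand. Vehicle kidneys had 45.3, 40.2, 37.2, 56.5 and 59.1 CPM, and cisplatin kidneys had 47.5, 53.3, 46.6, 45.8 and 48.5 CPM. The cisplatin values lay inside the range of all vehicle kidneys, and the log2 fold change was 0.020 ± 0.15 (95% interval -0.27 to 0.31, adjusted p = 0.912). With both agents, kidneys ran from 35.0 to 64.2 CPM with a median of 51.1, and their log2 fold change against vehicle was 0.071 ± 0.14 (95% interval -0.21 to 0.35, adjusted p = 0.691). With KW6002 alone, kidneys ran from 38.3 to 61.2 CPM with a median of 42.8, so all 4 groups overlapped. Within the 500 series, whose vehicle kidneys had 56.5 to 59.1 CPM, all 5 cisplatin kidneys were lower, and the log2 fold change was -0.26 ± 0.16 (adjusted p = 0.171).

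**Figure D2:**
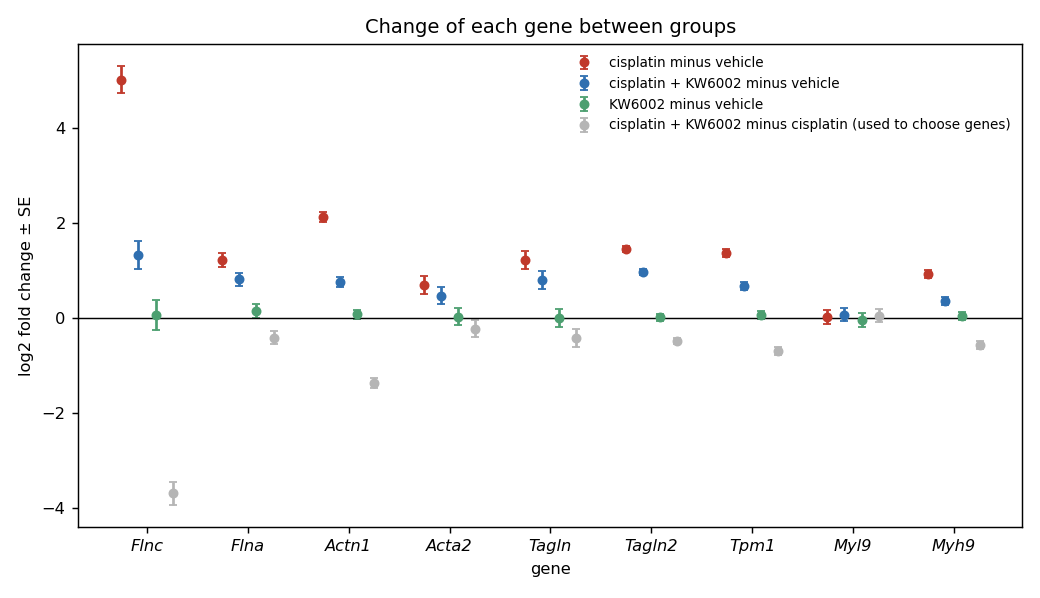
Log2 fold change of each of the 9 genes in 4 comparisons, with its standard error as the bar; grey points are the comparison used to choose the genes and carry no test. Cisplatin values run from 0.020 for Myl9 to 5.01 for Flnc, co-treated values against vehicle from 0.071 to 1.33, and KW6002 values from -0.035 to 0.15.

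Among mice of the 500 series alone, 7 of 9 genes were higher after cisplatin than after vehicle, beside 31.4% of all genes in the same fit. Flnc stood at 4.74 ± 0.42 on the log2 scale, and Acta2 no longer passed, at 0.55 ± 0.26 (adjusted p = 0.0703). For co-treated against vehicle kidneys, 5 of 9 were higher, beside 24.6% of all genes. Flnc kept its call at 1.06 ± 0.41 (adjusted p = 0.0428). Those that did not pass besides Myl9 were Acta2 at 0.33 ± 0.25 (adjusted p = 0.290), Tagln at 0.54 ± 0.24 (adjusted p = 0.0685) and Myh9 at 0.20 ± 0.11 (adjusted p = 0.149). Vehicle kidneys of the 2 series differed in level for several of these genes. Myl9 was at 37.2 to 45.3 CPM in the 3 vehicle kidneys of the 300 series and at 56.5 to 59.1 CPM in the 2 of the 500 series. For Tagln the ranges were 31.0 to 46.4 CPM and 52.5 to 53.5 CPM.

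Counts per kilobase of exon allow levels to be compared between genes. In vehicle kidney, Tagln2 was highest at 64.6 ± 5.78 CPM per kilobase (SD, n = 5), followed by Myl9 at 41.02 ± 8.37 and Myh9 at 32.6 ± 3.86, neighbours whose SDs overlap. Tagln, Acta2 and Flna came next at 22.4 ± 4.74, 20.01 ± 3.32 and 17.7 ± 2.98 CPM per kilobase, and their SDs overlap too. Tpm1 at 14.1 ± 2.15, Actn1 at 7.57 ± 0.991 and Flnc at 0.181 ± 0.0423 CPM per kilobase closed the order. After cisplatin, Tagln2 led at 177 ± 13.4 CPM per kilobase, followed by Myh9 at 61.8 ± 3.91, Tagln at 52.2 ± 8.12 and Myl9 at 41.6 ± 2.55. Flna, Tpm1, Actn1 and Acta2 then lay close together at 41.3 ± 4.38, 36.4 ± 1.87, 33.1 ± 4.64 and 32.5 ± 4.98 CPM per kilobase. Flnc reached 5.86 ± 2.44 CPM per kilobase and stayed last of the 9. The summed level of the 9 genes was 220.2 CPM per kilobase in vehicle, 224 in KW6002, 482 in cisplatin and 345.1 in co-treated kidneys.

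Ratios of counts between relatives within a library do not depend on scaling between libraries. Altogether 7 ratios were each compared with vehicle in 3 treated groups, giving 21 exact two-sided permutation tests whose p-values are unadjusted. The smallest p these tests can give is 0.00794 for 5 against 5 libraries and 0.00433 for 6 against 5. Those of cisplatin and of co-treated kidneys share libraries with the comparison used to choose the genes.

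The filamins shifted against each other. The log2 ratio of Flnc to Flna was -6.63 ± 0.22 in vehicle and -2.91 ± 0.47 in cisplatin kidneys (SD, n = 5 each), a difference of 3.72 (exact permutation p = 0.00794). In co-treated kidneys it exceeded vehicle by 0.53 (exact permutation p = 0.00866).

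Actn1 shifted against Actn4, an alpha-actinin found in podocytes and other cells, by 2.03 after cisplatin (exact permutation p = 0.00794). Actn4 did not pass, with 508 ± 34.8 CPM in vehicle and 544 ± 17.4 CPM in cisplatin kidneys (SD, n = 5, edgeR adjusted p = 0.129). The log2 ratio of Myh9 to Myh10, nonmuscle myosin IIB, differed by 1.07, and that of Myl9 to Myl12a, a nonmuscle light chain, by -1.16 (exact permutation p = 0.00794 for each). Myl12a rose from 93.3 ± 7.14 to 215 ± 19.5 CPM after cisplatin, so the regulatory light chains parted. In co-treated kidneys the Myl9 to Myl12a ratio differed from vehicle by -0.61 and the Myh9 to Myh10 ratio by 0.30 (exact permutation p = 0.00433 and 0.0173).

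Other pairs stayed closer together. After cisplatin the Tpm1 to Tpm4 log2 ratio differed by -0.28 (exact permutation p = 0.0159) and that of Acta2 to Actb by 0.30 (exact permutation p = 0.0476). The Tagln to Tagln2 difference was -0.22 (exact permutation p = 0.278). With KW6002 alone, differences from vehicle ran from -0.14 to 0.093 over the 7 ratios, and the lowest exact permutation p was 0.225.

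**Figure D3:**
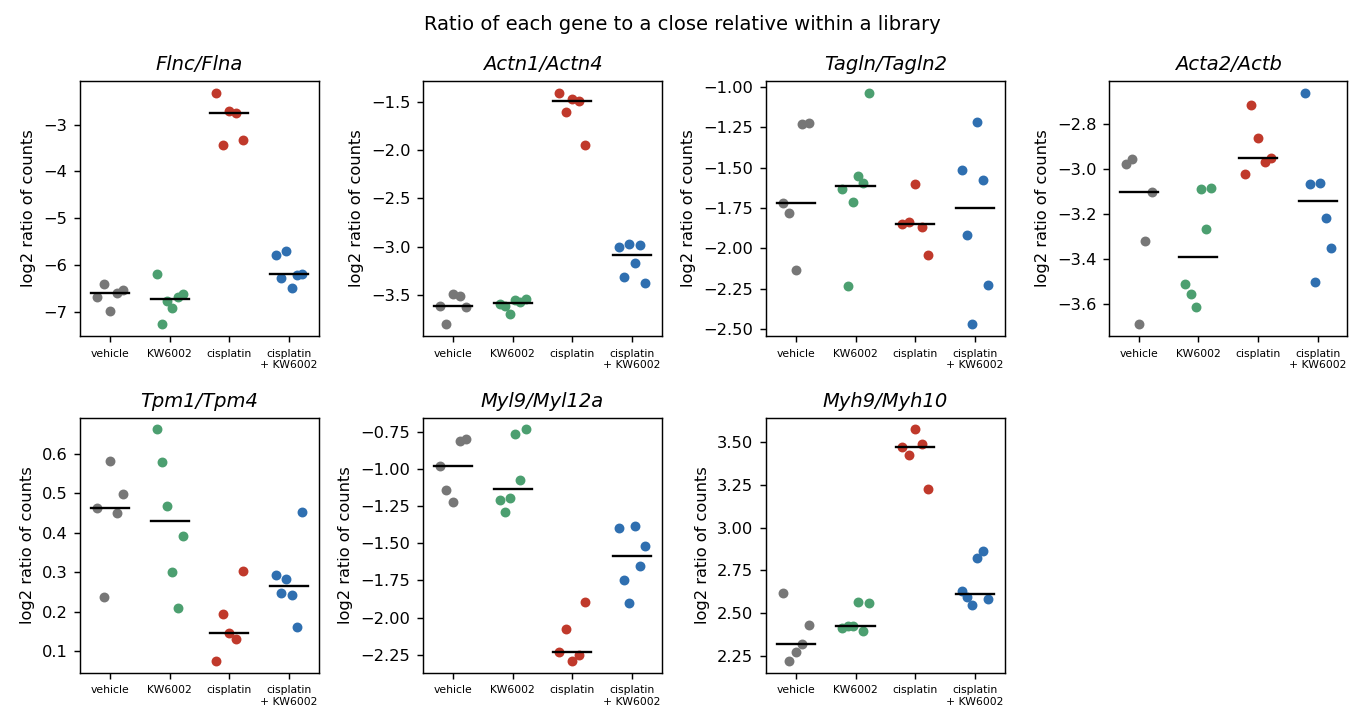
Log2 ratio of the counts of a gene to those of a relative within each of 22 libraries by group, with 1 point per mouse. Flnc to Flna lies between -3.43 and -2.32 in cisplatin kidneys and at -5.70 or less in every other library, and the median of Myl9 to Myl12a is lowest in cisplatin kidneys.

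The genes other than Tagln2 also varied together among mice of the same group. After each gene was centred on its group mean, Pearson's r of log2 CPM over the 22 libraries had a median of 0.62 over the 36 pairs. The 28 pairs without Tagln2 were all positive, from 0.30 for Actn1 and Myl9 to 0.95 for Acta2 and Tagln. Flna went with Tagln at r = 0.90, with Acta2 at r = 0.86 and with Myh9 at r = 0.84. The 8 pairs that hold Tagln2 ran from -0.35 to 0.20. Within the cisplatin group alone, r of Myl9 with the other members ran from -0.60 with Flnc to 0.39 with Tagln2. These libraries share depth, scaling and mouse series, and r is given as a description. It was not compared with r over pairs of all genes. When number series was centred as well, the pairs without Tagln2 ran from 0.11 to 0.95 and those with it from -0.066 to 0.39.

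**Figure D4:**
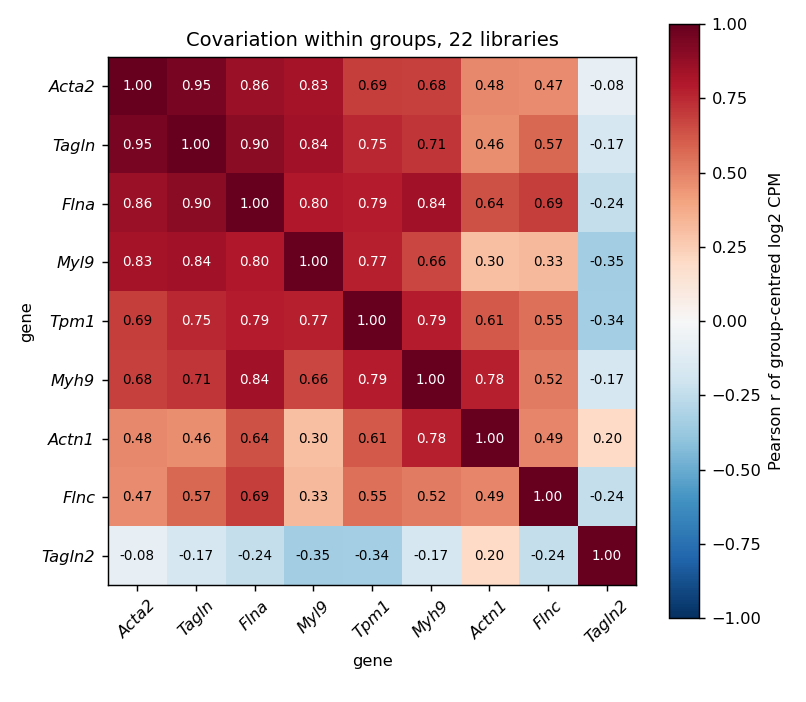
Pearson's r between the 9 genes over 22 libraries, from log2 CPM centred on group means. Acta2, Tagln, Flna and Myl9 form a block from 0.80 to 0.95, whereas the pairs with Tagln2 run from -0.35 to 0.20.

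Over the 22 libraries, with group differences kept, the gene most like Flnc among 10421 genes compared was Ptgfrn (r = 0.990). It was followed by Col4a1, a collagen chain of basement membranes (r = 0.983), then Plekhh2 (r = 0.982), Dap (r = 0.981) and Shisa4 (r = 0.981). Col4a1 had mean levels of 341, 325, 1065 and 478 CPM in vehicle, KW6002, cisplatin and co-treated kidneys. The genes most like Acta2 were Tpm2, a tropomyosin of muscle (r = 0.891), Anxa5 (r = 0.887), Rhoj (r = 0.880), Ppard (r = 0.879) and Csrp1, a LIM protein of smooth muscle (r = 0.864). Because groups differ, these r values carry the group means.

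Further actin genes, in 5 lists, set the members in context, and 89 of 94 could be tested. The lists, like the members, were chosen with earlier results of these data known, so their counts are not independent of those results. After cisplatin, 56 of these 89 genes were higher, 13 were lower and 20 did not pass, beside 34.6% and 35.9% of all genes higher and lower. The median log2 fold change over the lists was 0.49. Between co-treated and cisplatin kidneys, 45 were lower and 11 higher, beside 27.2% and 28.6% of all genes, with a median of -0.23. At the stricter call, 2 were higher and 11 lower, beside 4.65% and 5.66% of all genes. Against vehicle, 48 were higher and 14 lower in co-treated kidneys, beside 29.8% and 29.9% of all genes. With KW6002 alone 0 of 89 passed the edgeR test and 12 were at an unadjusted p below 0.05, beside 11.3% of all genes. DESeq2 called 1, the Arp2/3 subunit Arpc3 (log2 fold change -0.26 ± 0.056, adjusted p = 0.00454), which was named after its value was seen.

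Among partners of filamins, 10 of 15 rose after cisplatin and 2 fell, and 10 were lower and 0 higher when KW6002 was added to cisplatin. Of all genes, 34.6% rose and 35.9% fell after cisplatin, and 27.2% were lower and 28.6% higher with KW6002 added. These shares stand beside the counts of each list below as well. Fblim1, which binds filamin at adhesions, rose from 9.13 ± 1.65 to 47.3 ± 8.05 CPM (SD, n = 5), a log2 fold change of 2.37 ± 0.13, and fell by 1.34 on the log2 scale with KW6002 added. The small heat shock proteins Cryab and Hspb8, which guard protein folding, rose by 2.17 ± 0.25 and 1.22 ± 0.16 on the log2 scale. With KW6002 added they fell by 1.19 and 0.85.

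Of actins and their bundling relatives, 8 of 14 rose after cisplatin and 3 fell, and with KW6002 added 7 fell and 2 rose. The tropomyosins led. Tpm4 rose from 67.0 ± 8.77 to 211 ± 20.8 CPM, Tpm2 from 16.6 ± 2.34 to 32.5 ± 1.73 CPM and Tpm3 from 48.3 ± 2.42 to 93.8 ± 6.54 CPM (SD, n = 5). With KW6002 added, Tpm4, Tpm2 and Cald1, which encodes the filament-binding protein caldesmon, fell by 0.81, 0.68 and 0.66 on the log2 scale, and Actn4 rose by 0.19 ± 0.054. Actb, the main nonmuscle actin, rose after cisplatin from 405 ± 61.3 to 531.8 ± 63.0 CPM (adjusted p = 0.0201). Actg1, the gamma nonmuscle actin, stood at only 1.58 ± 0.388 CPM in vehicle, and near-identical actin copies make its value uncertain. Actg2, the enteric smooth muscle actin, did not pass, with 0.715 ± 0.683 CPM in vehicle and 1.05 ± 0.330 CPM in cisplatin kidneys (adjusted p = 0.420).

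Of myosin II chains and regulators, 7 of 18 rose after cisplatin (38.9%, beside 34.6% of all genes) and 2 fell (11.1%, beside 35.9%). The other 9 did not pass, and the median log2 fold change was 0.020. With KW6002 added, 6 fell (33.3%, beside 27.2%) and 3 rose (16.7%, beside 28.6%). The GTPase Rhob and the kinase Rock2 rose by 2.13 ± 0.12 and 1.76 ± 0.11 on the log2 scale after cisplatin and fell by 1.14 and 1.03 with KW6002 added, when Myl12a fell by 0.52. Myh14, a nonmuscle heavy chain, fell by 0.91 on the log2 scale after cisplatin, from 84.0 ± 5.83 to 44.7 ± 8.25 CPM (SD, n = 5). The smooth muscle heavy chain Myh11 did not pass, at 47.3 ± 4.96 CPM in vehicle and 46.2 ± 5.92 CPM in cisplatin kidneys (adjusted p = 0.833), nor did Myh10 (adjusted p = 0.102), and the light chain Myl12b rose by 0.58 ± 0.054. With KW6002 added, Myh10 and the phosphatase subunit Ppp1r12c rose by 0.19 ± 0.073 and 0.17 ± 0.041.

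Of SRF, its cofactors and targets, 11 of 15 rose after cisplatin and 1 fell, the LIM protein gene Fhl1, by 0.69 on the log2 scale. The immediate early genes Egr1 and Fos rose by 4.87 ± 0.41 and 4.22 ± 0.38, and Ccn1, which encodes a secreted matrix protein, by 3.32 ± 0.26. With KW6002 added, 6 fell and 2 rose. Ccn1, Ccn2 and Fhl2 then fell by 1.73, 0.81 and 0.65, whereas the adhesion gene Zyx rose by 0.38 ± 0.067 and Srf by 0.19 ± 0.070. Egr1 and Fos did not pass in that comparison (adjusted p = 0.0723 and 0.672).

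Of genes for actin turnover and membrane links, 20 of 27 rose after cisplatin and 5 fell. The filament-capping gene Capg rose from 17.4 ± 1.34 to 166 ± 4.08 CPM, Arpc1b, an Arp2/3 subunit, from 46.0 ± 6.44 to 190.4 ± 21.3 CPM, and moesin (Msn) from 209.5 ± 17.6 to 449 ± 52.8 CPM (SD, n = 5). Radixin (Rdx), a relative of moesin, fell by 0.68 on the log2 scale, the leukocyte plastin Lcp1 by 0.57 and talin (Tln1) by 0.39. With KW6002 added, 16 fell and 4 rose. Capg, Arpc1b and the thymosin gene Tmsb4x then fell by 1.35, 1.11 and 0.58, and Lcp1, ezrin (Ezr) and the plastin Pls1 rose by 0.74 ± 0.13, 0.25 ± 0.065 and 0.23 ± 0.076.

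Markers of cell types, none of them a member, were summed in each library, and their part in the results above was not tested. The 12 smooth muscle markers summed to 315 to 404 CPM in vehicle, 365 to 422 in cisplatin and 278 to 374 in co-treated kidneys. Vehicle and cisplatin sums overlapped, with 3 of 12 markers higher and 0 lower after cisplatin, beside 34.6% and 35.9% of all genes. Npnt and Smtn weighed most in this sum, at up to 188 and 158 CPM, whereas Myh11 reached 58.5 CPM and Cnn1 3.57 CPM. Whether the Npnt and Smtn RNA came from smooth muscle was not tested, so the sum is no measure of smooth muscle content. The 8 pericyte and mesangial markers summed to 301 to 378 CPM in vehicle, 411 to 501 in cisplatin and 306 to 371 in co-treated kidneys, with 3 higher and 4 lower after cisplatin. The 9 fibroblast markers summed to 211 to 495, 866 to 1149.6 and 381 to 733 CPM in the same order, with 5 higher and 1 lower after cisplatin.

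Markers of injured tubule summed to 1066 to 1268 CPM in vehicle, 13401 to 16591 in cisplatin and 6183 to 8234 in co-treated kidneys, and 10 of 11 rose after cisplatin. Spp1 weighed most in this sum, at up to 12702 CPM, and the next, Lcn2, reached 1482 CPM. The 8 proximal tubule markers, the defining ones of kidney, were present throughout and summed to 16261 to 17233 CPM in vehicle, 2741 to 4217 in cisplatin and 7300.3 to 10824 in co-treated kidneys, and 8 of 8 fell after cisplatin.

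Flnc is best known from striated muscle, and several markers of that tissue were at or near 0. Myh4 had no read in any library, and Ckm, Myh1 and Myh2 were at 0 in 12, 17 and 21 of 22 libraries. Tnnt3, Tnni2, Mylpf and Actn3 had reads in every library, with Mylpf at up to 2.32 CPM. The 11 skeletal muscle markers, of which 10 were found, summed to 19.9 to 22.8 CPM in vehicle, 2.78 to 3.82 CPM in cisplatin and 2.57 to 4.04 CPM in co-treated kidneys. Of these, parvalbumin (Pvalb), which distal kidney tubule also expresses and which was named after its value was seen, reached 20.6 CPM and each of the others at most 2.32 CPM. The 6 cardiac markers summed to 1.98 to 3.77 CPM in vehicle and 2.88 to 4.02 CPM in cisplatin kidneys. Of the 3 that could be tested, 2 were higher and 1 lower after cisplatin. Tnnt2 and Myh6 had reads in every library and reached 2.88 and 1.88 CPM, beside a mean of 1.70 CPM for Flnc in vehicle.

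Endothelial sums, at 511 to 558 CPM in vehicle and 499.9 to 655 in cisplatin kidneys, overlapped, as did podocyte sums at 521.4 to 636 and 541 to 589.9 CPM. Macrophage sums were 205 to 495 CPM in vehicle, 312 to 414 in cisplatin and 169 to 271 in co-treated kidneys, the last all below cisplatin. Neutrophil sums stayed at 9.94 CPM or less and platelet sums at 12.4 CPM or less in every library. Fat markers varied widely, at 158 to 1432 CPM in vehicle, 417 to 835 in cisplatin and 41.3 to 393 in co-treated kidneys.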

How the data were processed

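Kidney RNA-Seq libraries of 22 mice were analysed, grouped by the treatment in the labels. The authors aligned reads with STAR to mm10 and deposited 1 table of raw counts per gene made with HTSeq 0.6.1p1; whether strand was used in counting is not given in the sources used here. The table also held 66 unnamed empty columns, which were not used. Replicate libraries differed beyond sampling noise, and totals ran from 26471762 to 40510754 counts per library.

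Genes with at least 10 counts at the median library size in at least 5 libraries, and 15 in all, were kept (17131 genes). The edgeR 4.0.16 quasi-likelihood test (R 4.3.3, limma 3.58.1) was fitted to all 22 libraries with TMM scaling, 1 coefficient per group and Benjamini-Hochberg adjustment over all genes. Ratios between relatives were compared with exact two-sided permutation tests; 1 relative of the members is not reported here. Scripts were tested on simulated data. Alternatives were DESeq2 1.42.0, other scaling and filters, a fit to the compared groups alone, a block for replicate number, number series as a covariate, only mice numbered in the 500s, a stricter threshold, and leaving out each library in turn.

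The members and lists were chosen with earlier results of these data known, so members carry no test in the comparison of cisplatin plus KW6002 with cisplatin. Named list genes were, in each of 5 actin lists, the 3 that changed most each way, of those that passed, at an average log2 CPM of at least 3, plus relatives of members. The 5 genes most like Flnc and Acta2 were named by Pearson's r. Marker lists covered smooth muscle, pericytes and mesangium, fibroblasts, skeletal and cardiac muscle, endothelium, macrophages, neutrophils, platelets, podocytes, proximal and injured tubule, and fat.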

Additional observations from a re-analysis of the deposited data

Results flagged for a closer look

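In a check of 36 values, 1 for each gene and group, for a library far from the rest, which chance alone would mark in about 1 in 20, 2 libraries stood apart. Vehicle replicate 2 had the lowest Actn1 level of its group, 32.4 CPM, with the next at 42.2 CPM. KW6002 replicate 6 had the highest Acta2 level of its group, 65.6 CPM, with the next at 46.5 CPM. The mean Actn1 difference made by KW6002 was 2.28 CPM without cisplatin and -112 CPM with it. Every KW6002 library was above the vehicle mean, but that mean includes the low vehicle replicate 2. By median, KW6002 kidneys stood at 44.1 CPM and vehicle kidneys at 44.4 CPM. Every co-treated library was below the cisplatin mean. The contrast between these differences was not tested, since it holds the comparison used to choose the genes.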

How the results depend on the processing

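Over 720 alternatives run on 36 results for single genes, 12 lost their call, 11 of them between co-treated and vehicle kidneys, and none that passed changed sign. Only genes that had passed could lose a call: 8 of 9 after cisplatin and 8 of 9 in co-treated against vehicle kidneys. With KW6002 alone 0 of 9 passed, and the comparison used to choose the genes was not tested, yet alternatives of both are counted in the 720. Of the 9 genes, 8 were higher after cisplatin whichever library was left out, and 7 to 8 were higher in co-treated than in vehicle kidneys. The latter count was 5 among the 500s alone and 1 at the stricter threshold, which asks for an adjusted p below 0.01 together with a log2 value beyond 1. The median of the 9 genes between co-treated and cisplatin kidneys ran from -0.54 to -0.45 with 1 library left out. At that threshold the actin list genes called numbered 25 of 69 after cisplatin and 13 of 56 with KW6002 added, and with 1 library left out 65 to 70 and 52 to 57. For KW6002 alone the count of list genes was 0 to 1 with 1 library left out (1 without vehicle replicate 3 or without KW6002 replicate 1), and 1 with DESeq2, with number series as a covariate and among the 500s alone; the gene was Arpc3 each time. It was 0 among the 300s alone, an alternative chosen after seeing the data. The causes were not tested.

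Replicate numbers were shared between groups. Deviations of same-numbered libraries from their group means correlated at only -0.12 to 0.049 between cisplatin and vehicle kidneys. Between co-treated and vehicle kidneys they correlated at -0.18 to 0.087, so the numbers did not pair the mice in these comparisons. With the replicate block, 8 of 9 genes passed after cisplatin, 7 in co-treated kidneys and 0 with KW6002 alone, and 68, 57 and 0 list genes passed after cisplatin, with KW6002 added and with KW6002 alone. For KW6002 against vehicle the correlations ran from -0.15 to 0.40, with 4 of 5 above 0.1 and 3 of 5 highest with their own number. Same-numbered mice of these groups also shared a number series, and the part of either was not tested. Flnc rested on 32 to 63 counts per library in vehicle kidneys, where its coefficient of variation was 23.4%, beside 41.7% in cisplatin kidneys.

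Values that did not pass changed sign 41 times in the tested comparisons, over 10 of the 36 results, and 3 times for Myl9 in the comparison used to choose the genes. For Myl9 after cisplatin the log2 value was -0.22 with number series as a covariate, -0.26 among the 500s and -0.059 to 0.11 with 1 library left out. In co-treated against vehicle kidneys it was -0.17, -0.21 and -0.013 to 0.16 in the same order. The others were KW6002 against vehicle. Among the 500s Flnc was at -0.033, Tagln at -0.065, Tpm1 at -0.11 and Myh9 at -0.072, and among the 300s Acta2 was at -0.068, Tagln at -0.0017 and Tagln2 at -0.017. Acta2 and Tagln were at -0.013 and -0.034 with the covariate and at -0.0045 and -0.0058 with the replicate block, and Tagln at -0.0032 with no filter. With 1 library left out, Flnc ran from -0.073 to 0.21, Actn1 from -0.0032 to 0.11, Acta2 from -0.11 to 0.079, Tagln from -0.11 to 0.091, Tagln2 from -0.021 to 0.063, Myl9 from -0.13 to 0.055 and Myh9 from -0.0050 to 0.10.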
